A study of Mus musculus and Homo sapiens
Mus musculus with 14 samples.

Results

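The genes described here are those of the collagen chains and of a named set of proteins that fibroblasts secrete into, or use to build, the extracellular matrix. They were found by name in the first sequencing run of a mixed culture of human HEK and mouse 3T3 cells. Every gene whose upper-cased name had the form of a collagen chain (COL, a type number, A, a chain number) was taken, together with FN1, SPARC, LOX, TNC, THBS1, POSTN, FBN1, BGN, DCN, SERPINH1, P4HA1, PLOD2, TIMP1, TIMP3, MMP2, CCN1 and CCN2. This gave 62 genes, 45 of them collagen chains and 17 others. Of the 60605 human genes listed, 61 were members, and of the 55359 mouse genes listed, 61 were members. COL21A1 was listed for human only and Col6a4 for mouse only, so 60 members were present in both species.

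The libraries were made by Light-Seq, in which RNA is reverse transcribed inside fixed cells, and DNA barcodes are crosslinked by light onto the cDNA of hand-drawn regions before sequencing. Each well of the mixed culture held both lines, and the selected HEK cells received their barcode in a first round of light and the selected 3T3 cells another barcode in a second round. Molecules were counted by unique molecular identifiers (UMIs), random tags that let copies of the same cDNA be counted as 1. HEK cells are a human embryonic kidney line, which the labels name HEK293T and the methods describe as a HEK293 line that stably carries eGFP under the CMV promoter. 3T3 cells are an established line of mouse embryo fibroblasts. No experimental treatment was applied to either line. Before mixing, the lines were cultured in different media, with blasticidin for the HEK line only. Both then grew overnight in the same wells, and only a small share of the cells of a well was barcoded. The methods call the 3 wells technical replicates, so p-values measure only the spread between wells. Species, line, earlier culture medium, barcode and barcoding round all change together between the groups and cannot be told apart. The same genes were also followed in Light-Seq libraries of wild-type CD1 IGS mouse retina at postnatal day 18. These were 4 sections of 1 animal with 3 layers each, the outer nuclear layer (ONL), the bipolar cell layer (BCL) and the ganglion cell layer (GCL), and 5 sections, also technical replicates, with TH+ and TH- amacrine cells, TH being tyrosine hydroxylase, the marker of dopaminergic amacrine cells.

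The HEK libraries of wells 1, 2 and 3 held 47698, 102551 and 88459 UMIs, and the 3T3 libraries held 135565, 206187 and 199128. Mitochondrially encoded genes took 17.2% ± 0.882 of the HEK UMIs and 6.79% ± 0.0461 of the 3T3 UMIs (mean ± SD, n = 3), and they were left out of the total by which each library was scaled. Levels are given as counts per 1e6 non-mitochondrial UMIs of the library (CPM), as mean ± SD over the 3 wells unless stated otherwise. Each UMI was worth 11.7 to 25.6 CPM in the HEK libraries and 5.2 to 7.92 CPM in the 3T3 libraries. Ratios between the lines are of first-run UMIs pooled over the 3 wells, with a 95% interval that covers counting error only. For a gene with no UMI in any first-run well of a line, the ratio is a bound computed with 3 counts over that line. Human and mouse copies of a gene differ in annotated length, which these ratios ignore. Where dividing UMIs by gene length, a scale added after seeing the data, moved a ratio by more than 1.5 times, the ratio per length is given beside it.

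Collagens are secreted proteins whose chains wind around each other into a stiff helix. Fibrillar collagens assemble into the cables that give connective tissue its tensile strength, collagen IV forms the sheet-like network of basement membranes, and collagen VI forms beaded filaments close to the cell surface. Chains are hydroxylated and folded in the endoplasmic reticulum with dedicated enzymes and a chaperone, and they are crosslinked outside the cell. Fibronectin, matricellular proteins, proteoglycans and fibrillin organise the same matrix, while metalloproteinases and their inhibitors control its turnover. Fibroblasts are the main source of this material in connective tissue.

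Collagen and matrix genes were abundant in 3T3 cells and scarce in HEK cells. Member UMIs numbered 78, 123 and 116 in the HEK libraries and 8970, 10971 and 11310 in the 3T3 libraries. They made up 0.2%, 0.144% and 0.157% of non-mitochondrial UMIs in HEK cells against 7.1%, 5.71% and 6.09% in 3T3 cells. The lowest 3T3 well lay far above the highest HEK well, and the mean share was 37.7-fold higher in 3T3 cells (6.30% ± 0.721 against 0.167% ± 0.0292, n = 3 wells each). Collagen chains alone took 3.37% ± 0.529 of the 3T3 UMIs and 0.0633% ± 0.00225 of the HEK UMIs. In deposited TPM, which divide each count by gene length before scaling to a fixed total, members took 4.07% ± 0.327 of the non-mitochondrial sum in 3T3 cells and 0.183% ± 0.0318 in HEK cells. The ratio between the lines was thus smaller per length than by UMIs. The 4 genes Col1a1, Fn1, Col1a2 and Bgn supplied 70.6% of the member UMIs of 3T3 cells. In HEK cells the 4 members with most UMIs were TIMP1, FN1, PLOD2 and SERPINH1, with 43.8% of a far smaller total. Reads with the HEK barcode were mapped to the human genome alone and reads with the 3T3 barcode to the mouse genome alone. In a separate check against a combined reference of both species, the paper reports that most reads of each species carried the barcode meant for it. It describes a small part with the barcode of the other line. The counts used here do not show how much of each gene's count came from such RNA. Mouse RNA matched to a human gene therefore cannot be told apart from RNA of HEK cells in HEK counts of a few UMIs. The same holds for ratios that rest on such counts. The effect on the summed HEK level, and on its ratio to that of 3T3 cells, was not tested.

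**Figure D1:**
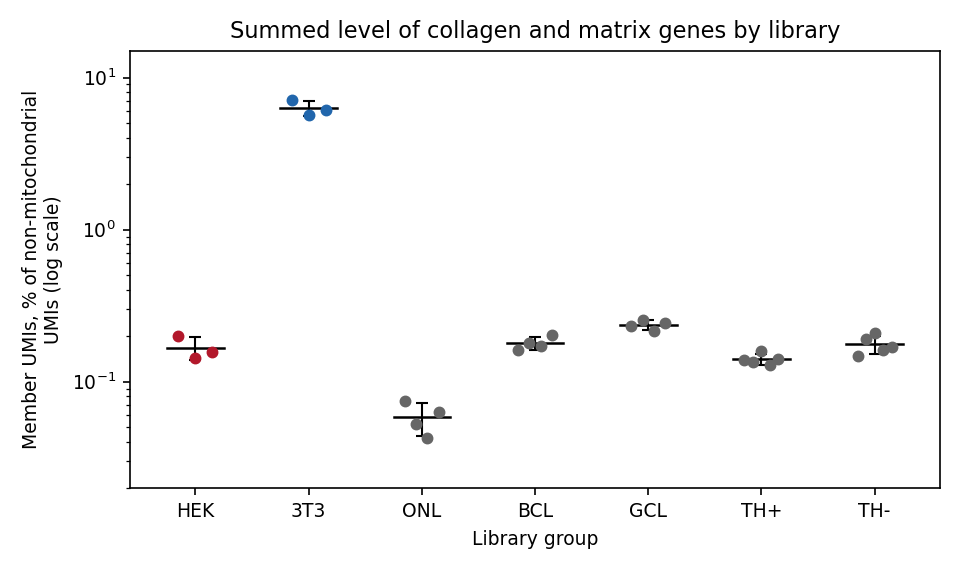
Summed UMIs of the member genes as a percentage of non-mitochondrial UMIs (log axis) in each library of HEK and 3T3 cells, the 3 retinal layers and the TH+ and TH- amacrine cells; points are libraries, horizontal bars are means and error bars are SD. The 3 3T3 libraries sit at 5.71% to 7.10%, and every other library lies below 0.255%. The mixed culture and the retina were separate experiments.

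Between HEK and 3T3 cells, human and mouse genes were joined by name, which left 16742 names, and 6127 of these passed a filter on low counts and were tested with edgeR's quasi-likelihood test. The filter kept 32 of the 60 members present in both species. Of these 32, 27 were higher in 3T3 cells at an adjusted p under 0.05, against 21.1% of all genes tested, and 2 were higher in HEK cells (COL18A1 and PLOD2), against 29.8% of all genes tested. P4HA1, COL4A5 and COL4A6 did not pass the test. A member enters the test by being detected in at least 1 of the lines, so the share called among tested members is a description of those genes only. The median log2 fold change, 3T3 minus HEK, was 4.96 over the tested members and -0.22 over all genes tested. With the 9 members that had no UMI in 1 of the lines placed at their bound, the median over tested members was 4.02. The split of all calls depended on scaling: 1293 genes were higher in 3T3 cells and 1828 in HEK cells here, against 1678 and 1402 with TMM factors, 1674 and 1407 with RLE size factors, and 1214 and 1069 with DESeq2. The median of all genes moved with it, by 0.33, 0.32 and 0.33 on the log2 scale, by 0.16 when mitochondrial genes were kept in the total and by -0.14 without the filter. Relative to the median of all genes the tested members stood at 5.18 here, 5.17 with TMM factors, 5.17 with RLE size factors, 5.13 with DESeq2 and 5.18 with mitochondrial genes in the total, and at 3.73 without the filter, where 49 members were tested.

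**Figure D2:**
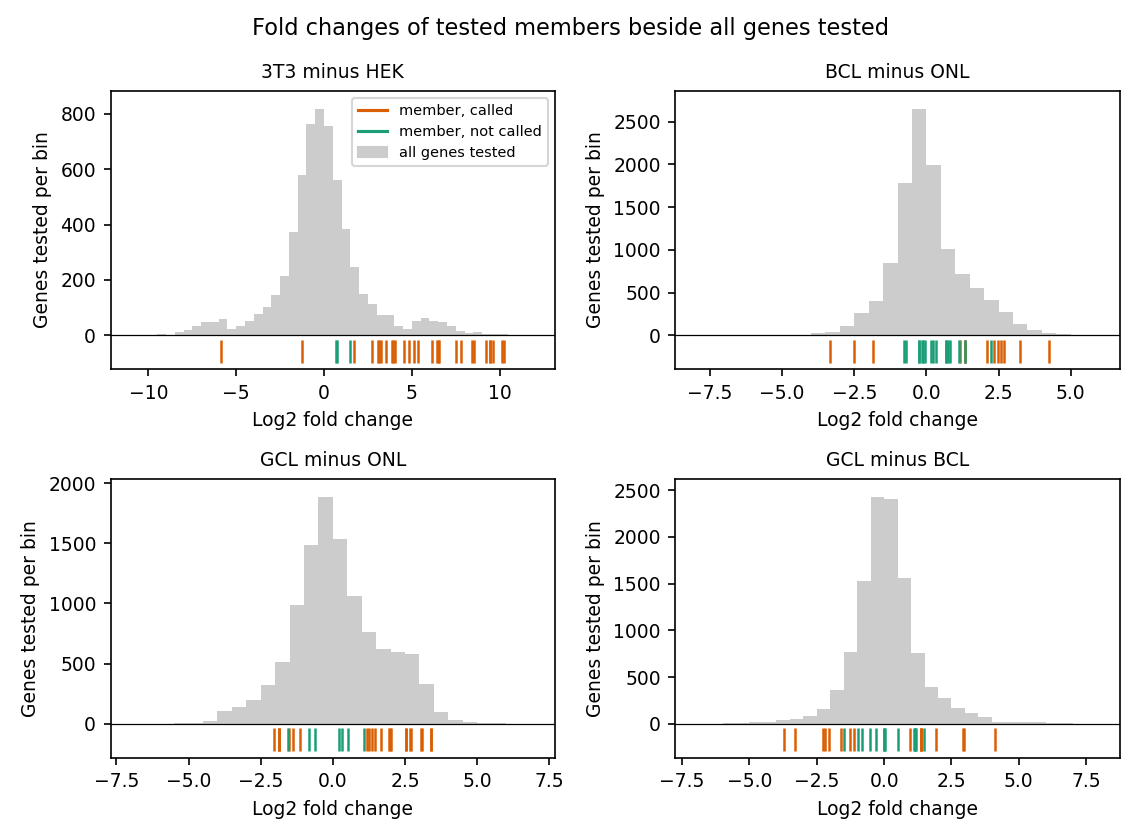
Log2 fold changes of the tested members (ticks below each axis, orange where the adjusted p was under 0.05) and of all genes tested (grey histogram, genes per bin of 0.5) for 3T3 minus HEK and for the 3 pairs of retinal layers. In the mixed culture 27 of 32 ticks are called on the 3T3 side, while ticks lie on both sides in the retina.

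The lines were checked against marker genes of each. All 12 fibroblast markers had UMIs in 3T3 cells, and their summed level was 10152 ± 331 CPM in 3T3 cells against 501 ± 80.1 CPM in HEK cells. Vim, the intermediate filament protein of mesenchymal cells, had the most UMIs of these markers in both lines (454, 703 and 606 in the 3T3 wells and 16, 29 and 34 in the HEK wells), and PDGFRA, THY1, S100A4 and TAGLN had none in HEK cells. Of the 11 fibroblast markers tested, 10 were higher in 3T3 cells and none in HEK cells, with a median log2 fold change of 6.57, or 4.78 with genes at 0 placed at their bound. TWIST1, named after its values were seen, lost its call with DESeq2 and without well 1 or 2 (adjusted p 0.062 to 0.155). Lgals1, a galactose-binding lectin, was 166-fold (95% interval 45.9 to 1376) higher in 3T3 cells, and Acta2, the smooth muscle actin of contractile fibroblasts, was 111-fold (95% interval 47.5 to 343) higher. Of 10 genes listed as marks of HEK cells, the epithelial keratins KRT8 and KRT18 had no UMI in either line. Of the 6 tested, 4 were higher in HEK cells and none in 3T3 cells, with a median of -2.02. The RNA-binding protein IGF2BP1 had 55, 150 and 127 UMIs in the HEK wells and 21, 37 and 43 in the 3T3 wells. The neurofilament gene NEFL had 6 UMIs in each HEK well and none in 3T3 cells, and the cadherin CDH2 had 16, 32 and 28 in the HEK wells and 20, 41 and 36 in the 3T3 wells (not called with DESeq2, adjusted p = 0.0906). The 10 genes together stood at 2357 ± 138 CPM in HEK cells and 461 ± 75.4 CPM in 3T3 cells.

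The fibrillar collagens I, III and V, the main tension-bearing collagens of skin, tendon and stroma, made up 45.2% of the member UMIs of 3T3 cells. Their 6 chains summed to 28685 ± 4584 CPM in 3T3 cells and 141 ± 67.7 CPM in HEK cells. Col1a1, which encodes the more numerous chain of collagen I (ENSMUSG00000001506.11, chr11:94827050-94843868, plus strand on GRCm39), had 2607, 3008 and 3137 UMIs in the 3T3 wells and 3, 2 and 4 in the HEK wells. Its 3T3 level was 17729.8 ± 2600.4 CPM, 382-fold (95% interval 201 to 837) above that in HEK cells, and its log2 fold change was 8.57 ± 0.27 (edgeR's quasi-likelihood test, Benjamini-Hochberg adjusted p = 5.13e-131). In the deeper run of well 2 it had 9 UMIs (76.3 CPM) in HEK cells and 13339 CPM in 3T3 cells, a ratio below this interval. Col1a2, the partner chain (ENSMUSG00000029661.17, chr6:4504814-4541555, plus strand), had 1204, 1302 and 1392 UMIs in 3T3 wells and 1, 0 and 1 in HEK wells, a ratio of 766-fold (95% interval 212 to 6331). The deeper run of well 2 held 4 Col1a2 UMIs (33.9 CPM) in HEK cells and 5966 CPM in 3T3 cells, again a ratio below the interval. In the first run all 3 HEK wells were at or near 0 for both chains, and no well of 1 line overlapped the other.

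Col3a1, the collagen III chain of extensible tissues (chr1:45350698-45395840, plus strand), had 104, 121 and 96 UMIs in the 3T3 wells and none in the first-run HEK wells, at least 42.1-fold (at least 25.5-fold per length) higher in that run. In the deeper run of well 2 it had 2 UMIs (16.9 CPM) in HEK cells and 588 CPM in 3T3 cells, a ratio below the UMI bound. The collagen V chain Col5a1, which nucleates and limits the width of collagen I fibrils, had 269, 273 and 239 UMIs in the 3T3 wells and 4, 3 and 6 in the HEK wells, a ratio of 23.6-fold (95% interval 13.7 to 44.6). Its partner Col5a2 had 96, 158 and 119 in the 3T3 wells and none in HEK cells, at least 48.9-fold higher. All 5 tested chains of this group were higher in 3T3 cells, with adjusted p of at most 1.10e-33 in edgeR's quasi-likelihood test (Benjamini-Hochberg). COL5A3 was not tested, with 1 UMI in HEK cells and 5 in 3T3 cells over the 3 wells. On GRCm39 Col3a1 and Col5a2 are neighbours on chromosome 1, facing each other with 16713 bases between their annotated ends.

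Promoter windows of 250 bases before to 50 bases after a gene's start were taken from RefSeq on GRCm38.p6, an earlier mouse build than the one used for gene positions. They were present for 45 of the 61 mouse members, 21 of them among the 30 with a mean of at least 10 UMIs in 3T3 cells. Col1a1 and Fn1 had none. Col1a2 and Bgn are shown because they were the 2 members with the highest mean level in 3T3 cells that had a window. Capitals mark matches, on either strand, to 3 common promoter elements. The first is CCAAT, which several transcription factors bind. Another is TATAAA, the classical core promoter element, and the last is GGGCGG, which is bound by factors of the Sp family. Neighbouring matches may overlap. The Col1a2 window (chr6:4505368-4505667, plus strand) held 2 CCAAT and 2 GGGCGG matches and no TATAAA. The Bgn window (chrX:73483351-73483650, plus strand) held 3 GGGCGG matches, 2 of them overlapping, and no match to the others.
Col1a2: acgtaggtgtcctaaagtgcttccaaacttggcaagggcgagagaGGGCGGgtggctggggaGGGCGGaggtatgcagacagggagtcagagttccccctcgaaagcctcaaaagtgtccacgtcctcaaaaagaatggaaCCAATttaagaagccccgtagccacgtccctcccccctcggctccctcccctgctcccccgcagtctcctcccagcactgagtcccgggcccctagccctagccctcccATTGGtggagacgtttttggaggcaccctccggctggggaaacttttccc
Bgn: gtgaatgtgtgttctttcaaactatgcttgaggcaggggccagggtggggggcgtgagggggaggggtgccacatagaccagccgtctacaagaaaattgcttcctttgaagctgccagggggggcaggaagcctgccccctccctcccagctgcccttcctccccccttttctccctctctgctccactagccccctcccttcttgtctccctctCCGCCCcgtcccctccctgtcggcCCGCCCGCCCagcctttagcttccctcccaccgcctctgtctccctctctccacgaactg
Over all 32851 RefSeq windows of this length, 37.4% held CCAAT, 13.6% TATAAA and 35.7% GGGCGG. Over the 50 windows of members, some genes having several, 15 held CCAAT (30%), 10 TATAAA (20%) and 32 GGGCGG (64%). A match describes only the letters present in the window.

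**Figure D3:**
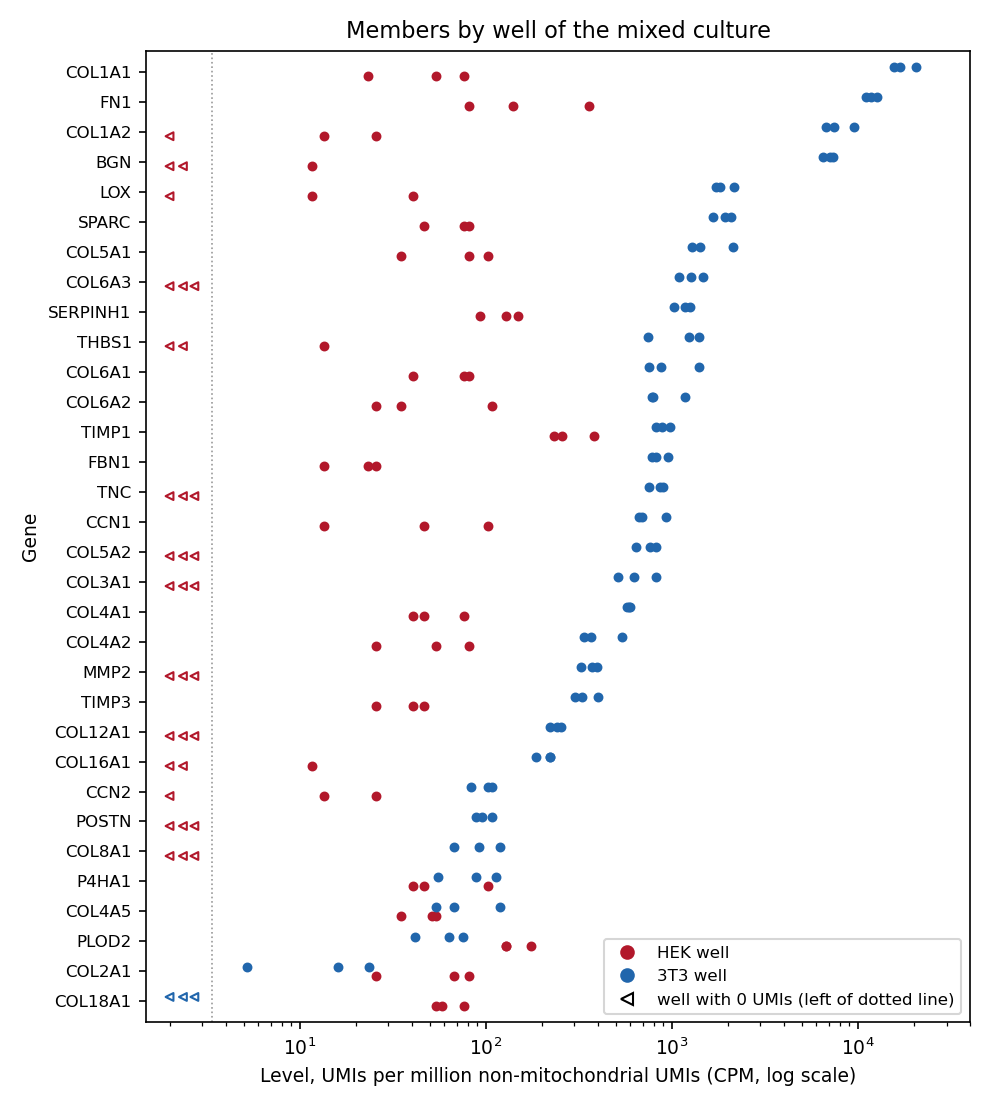
Level of each member with a mean of at least 10 UMIs in either line, and of COL2A1 and COL18A1, in CPM on a log axis; each filled point is a well (red HEK, blue 3T3), and open triangles left of the dotted line are wells with 0 UMIs. The 3T3 wells lie above the HEK wells except for P4HA1 and COL4A5, where they overlap, and PLOD2, COL2A1 and COL18A1, where HEK wells are higher.

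Chains that share a molecule were compared within each 3T3 well. Collagen I is usually built from Col1a1 and Col1a2 chains in unequal numbers. Col1a1 UMIs exceeded those of Col1a2 2.17, 2.31 and 2.25-fold in wells 1, 2 and 3, a ratio of 2.24 ± 0.0731, and per length the ratio was 4.25 ± 0.138 in TPM. In the deeper run of well 2 it was 2.24 by UMIs. The ratio differed between wells by far less than it differed from 1. For collagen V, Col5a1 over Col5a2 was 2.18 ± 0.557 by UMIs and 2.44 ± 0.624 in TPM. In collagen VI, Col6a1 over Col6a2 was 1.18, 1.1 and 0.972 by UMIs in wells 1, 2 and 3, where wells lay on both sides of 1, and 2.06 ± 0.2 in TPM, where no well did. Col6a3 over Col6a1 was 0.915, 1.68 and 1.45 by UMIs in wells 1, 2 and 3, again on both sides of 1, and 0.493 ± 0.143 in TPM, where every well lay below 1. Col4a1 over Col4a2 was 1.48 ± 0.326 by UMIs and 1.31 ± 0.289 in TPM, with 1 well below 1 on the TPM scale. Per length, Col1a1 stood 41.2 ± 6.66-fold above Col3a1 in TPM.

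**Figure D4:**
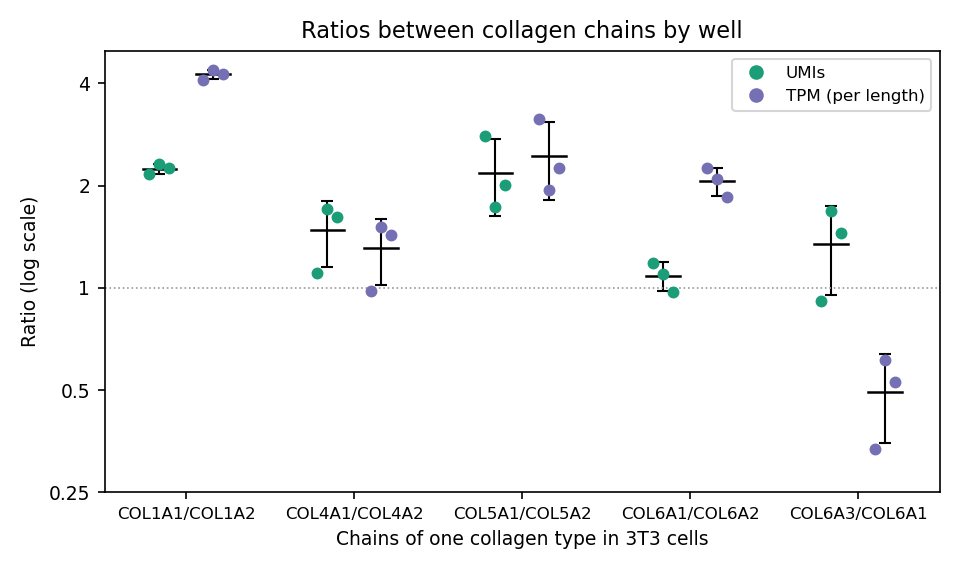
Ratio between chains of the same collagen type in 3T3 cells, by UMIs (green) and by TPM, which divides by gene length (purple), on a log axis; points are the 3 wells, horizontal bars are means and error bars are SD. Col1a1 over Col1a2 lies between 2.17 and 2.31 by UMIs and between 4.10 and 4.37 in TPM.

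Collagen IV is the network-forming collagen of basement membranes, and its genes lie in head-to-head pairs. Its 6 chains summed to 1299, 1025 and 1056 CPM in the 3T3 wells and 189 ± 22.8 CPM in HEK cells, and all 6 had at least 1 UMI in HEK cells. Col4a1 (chr8:11248423-11362826, minus strand on GRCm39), a chain of the most widespread collagen IV molecule, had 75, 111 and 110 UMIs in the 3T3 wells and 3, 4 and 3 in the HEK wells, a ratio of 11.6-fold (95% interval 6.24 to 24.5; 20.1-fold per length). Its partner Col4a2 (chr8:11362471-11499287, plus strand) had 68, 65 and 68 UMIs in the 3T3 wells and 1, 7 and 4 in the HEK wells, a ratio of 6.59-fold (95% interval 3.69 to 13; 16.9-fold per length). Both were high in every 3T3 well and low in every HEK well, and both passed edgeR's quasi-likelihood test (Benjamini-Hochberg adjusted p = 2.41e-21 and 1.17e-12). The annotated genes overlap at their starts on opposite strands, and the study counted reads with default settings that do not use strand, so reads inside that stretch cannot be told apart.

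In the RefSeq promoter windows on GRCm38.p6, those of Col4a1 and Col4a2 overlapped by 78 bases. Each held 1 CCAAT match and no TATAAA, and Col4a1 held 1 and Col4a2 3 GGGCGG matches.

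The X-linked pair Col4a5 and Col4a6, whose products join in the basement membranes of several organs, did not pass the test between the lines. Col4a5 had 15, 13 and 10 UMIs in the 3T3 wells and 2, 3 and 4 in the HEK wells, where the groups overlapped in CPM, and the ratio was 1.66-fold (95% interval 0.789 to 3.9; 2.59-fold per length). Its adjusted p was 0.28 in edgeR's quasi-likelihood test (Benjamini-Hochberg), and 0.0267 with gene length as an offset, which ended on the other side of 0.05. Col4a6 had 6, 8 and 8 UMIs in the 3T3 wells and 1 in each HEK well (adjusted p = 0.112), and it passed with TMM factors (0.0444) and RLE size factors (0.0453). COL4A3 and COL4A4, the chains of the glomerular basement membrane, had 1 and 2 UMIs over the HEK wells and none in the first run of the 3T3 wells.

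Collagen VI, which links cells to the surrounding fibres, summed to 3208 ± 608 CPM in 3T3 cells and 123 ± 23.9 CPM in HEK cells. Col6a1 had 176, 168 and 141 UMIs in the 3T3 wells and 3, 7 and 3 in the HEK wells, a ratio of 14.7-fold (95% interval 8.5 to 27.8). Col6a2 had 149, 153 and 145 UMIs in the 3T3 wells and 1, 3 and 8 in the HEK wells, a ratio of 14.6-fold (95% interval 8.3 to 28.6; 8.27-fold per length). Col6a3, the chain with the longest globular extensions, had 161, 282 and 204 UMIs in the 3T3 wells and none in HEK cells, at least 84.8-fold (at least 134-fold per length) higher. All 3 passed edgeR's quasi-likelihood test (Benjamini-Hochberg) at p of at most 3.23e-30. Col6a4, COL6A5 and COL6A6 had no UMI in any library of the mixed culture in which they were listed.

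Of the 27 other collagen chains, 14 had at least 1 UMI in the 3T3 wells and 8 in the HEK wells, and 4 were tested. Col12a1, which sits on the surface of collagen I fibrils, had 28, 49 and 45 UMIs in the 3T3 wells and none in HEK cells, at least 16-fold higher. Col16a1, another fibril-associated chain, had 28, 36 and 41 in the 3T3 wells and 0, 1 and 0 in the HEK wells, a ratio of 41.3-fold (95% interval 7.25 to 1646). Col8a1, a short-chain network collagen, had 15, 13 and 17 in the 3T3 wells and none in HEK cells, at least 5.9-fold higher. These 3 passed the test, and the HEK wells were at or near 0 for each. Col15a1, not tested here, had 6, 9 and 2 UMIs in the 3T3 wells and none in HEK cells. It was higher in 3T3 cells without the low-count filter (adjusted p = 0.0103) and without well 3 (0.0136).

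Glycoproteins and proteoglycans of the matrix summed to 24522 ± 1790.0 CPM in 3T3 cells and 358 ± 202 CPM in HEK cells. Fn1, fibronectin, the adhesive glycoprotein on which collagen fibrils assemble (ENSMUSG00000026193.16, chr1:71624673-71692419, minus strand on GRCm39), had 1599, 2128 and 2195 UMIs in the 3T3 wells and 14, 12 and 6 in the HEK wells. Its level of 11852 ± 797 CPM was 72.8-fold (95% interval 51.5 to 106) above HEK cells, with a log2 fold change of 6.15 ± 0.23 (edgeR's quasi-likelihood test, Benjamini-Hochberg adjusted p = 4.00e-104). The deeper run of well 2 held 23 FN1 UMIs (194.9 CPM) in HEK cells and 9457 CPM in 3T3 cells, a ratio below this interval. FN1 was nonetheless among the members with most UMIs in HEK cells, and HEK well 1 was the highest of the 3. Bgn, biglycan, a small leucine-rich proteoglycan that binds collagen I (chrX:72527208-72539541, plus strand), had 929, 1257 and 1311 UMIs in the 3T3 wells and 0, 1 and 0 in the HEK wells, a ratio of 1375-fold (95% interval 247 to 54330.3; 478-fold per length). Its relative Dcn, decorin, was nearly absent, with 1, 2 and 1 UMIs in the 3T3 wells and none in HEK cells, and was not tested. The ratio of Bgn rests on 1 UMI in HEK cells.

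Sparc, a matricellular protein that binds collagen and calcium, had 262, 320 and 359 UMIs in the 3T3 wells and 3, 4 and 6 in the HEK wells, a ratio of 28.5-fold (95% interval 16.6 to 53.7). Fbn1, fibrillin, the scaffold of elastic microfibrils, had 121, 151 and 152 UMIs in the 3T3 wells and 1, 2 and 1 in the HEK wells, a ratio of 41.7-fold (95% interval 16.2 to 154). Thbs1, thrombospondin, which activates latent TGF-beta, had 156, 144 and 261 UMIs in the 3T3 wells and 0, 0 and 1 in the HEK wells, a ratio of 221-fold (95% interval 39.4 to 8729). All 3 genes were high in every 3T3 well and at 6 UMIs or fewer in every HEK well. Tnc, tenascin C, a protein of developing and healing tissue, had 109, 172 and 141 in the 3T3 wells and none in HEK cells, at least 55.3-fold higher. Postn, periostin, a collagen-binding protein of tendon and bone surfaces, had 12, 17 and 20 in the 3T3 wells and none in HEK cells, at least 6.42-fold (at least 3.55-fold per length) higher.

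Ccn1 and Ccn2 are secreted matricellular proteins that fibroblasts make in response to serum, stretch and TGF-beta. Ccn1 had 88, 129 and 173 UMIs in the 3T3 wells and 4, 4 and 1 in the HEK wells, a ratio of 17-fold (95% interval 8.88 to 37.5; 27.5-fold per length). Ccn2 had 13, 16 and 20 UMIs in the 3T3 wells and 1, 0 and 1 in the HEK wells, a ratio of 9.63-fold (95% interval 2.53 to 81.8). Of the 10 genes in this group all 9 that were tested were higher in 3T3 cells, with the largest adjusted p, 0.000189 in edgeR's quasi-likelihood test (Benjamini-Hochberg), for CCN2. Per length, in TPM, the order in 3T3 cells ran Col1a1 (8589 ± 1066), Bgn (3647 ± 193), Fn1 (3229 ± 176), Timp1 (3209 ± 179.8), Col1a2 (2029 ± 319.6), Sparc (1589 ± 161), Serpinh1 (1503 ± 129), Lox (1267 ± 119) and Ccn1 (1213 ± 256). Col1a1 stood apart from Bgn by more than their spread, whereas Fn1 and Timp1, and Sparc and Serpinh1, did not differ beyond theirs.

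Of the enzymes and the chaperone that act on collagen chains, SERPINH1 and LOX were higher in 3T3 cells, PLOD2 was higher in HEK cells and P4HA1 was not called. These 4 members summed to 3203 ± 314 CPM in 3T3 cells and 349 ± 63.8 CPM in HEK cells. Serpinh1, the collagen-specific chaperone of the endoplasmic reticulum (chr7:98994220-99005076, minus strand on GRCm39), had 158, 199 and 218 UMIs in the 3T3 wells and 5, 8 and 11 in the HEK wells, a ratio of 9.42-fold (95% interval 6.27 to 14.8; 21.3-fold per length). Lox, the secreted oxidase that starts crosslinking of collagen and elastin, had 272, 333 and 339 UMIs in the 3T3 wells and 0, 1 and 3 in the HEK wells, a ratio of 92.8-fold (95% interval 36.1 to 341). Both were higher in 3T3 cells, by 3.23 ± 0.26 and 6.49 ± 0.36 on the log2 scale. P4ha1, a catalytic subunit of prolyl hydroxylase, had 7, 17 and 21 UMIs in the 3T3 wells and 4, 4 and 3 in the HEK wells. Its CPM overlapped between the lines, the ratio was 1.61-fold (95% interval 0.819 to 3.45; 1.07-fold per length), and the difference did not pass edgeR's quasi-likelihood test (Benjamini-Hochberg adjusted p = 0.291).

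Genes of matrix turnover were also higher in 3T3 cells. Mmp2, a gelatinase that cuts denatured collagen and collagen IV, had 41, 72 and 74 UMIs in the 3T3 wells and none in HEK cells, at least 24.5-fold higher. Timp3, a metalloproteinase inhibitor held in the matrix, had 51, 58 and 61 UMIs in the 3T3 wells and 1, 4 and 3 in the HEK wells, a ratio of 8.36-fold (95% interval 4.15 to 19.7; 4.16-fold per length). Timp1, a soluble inhibitor, had 123, 171 and 153 UMIs in the 3T3 wells and 15, 20 and 19 in the HEK wells, and its ratio of 3.26-fold (95% interval 2.45 to 4.4) was the smallest by UMIs among the members called higher in 3T3 cells. TIMP1 was the member with most UMIs in HEK cells and stood at 469 ± 110.0 TPM there, above every other member on that scale. All 3 passed edgeR's quasi-likelihood test (Benjamini-Hochberg) at p of at most 6.09e-12.

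HEK cells exceeded 3T3 cells for PLOD2 and COL18A1. COL18A1, the basement membrane collagen whose end fragment is endostatin (ENSG00000182871.16 in human), had 3, 5 and 4 UMIs in the HEK wells and none in 3T3 cells, at least 10.2-fold higher in HEK cells (edgeR's quasi-likelihood test, Benjamini-Hochberg adjusted p = 2.43e-07). With edgeR's default filter and in each fit that left out a well, it was too low to be tested. PLOD2, the lysyl hydroxylase that acts on the ends of collagen chains, had 5, 11 and 13 UMIs in the HEK wells and 8, 8 and 14 in the 3T3 wells. In CPM it was 144 ± 27.7 in HEK cells and 60.1 ± 17.1 in 3T3 cells with no overlap, and the log2 fold change, 3T3 minus HEK, was -1.28 ± 0.43 (adjusted p = 0.00764). The PLOD2 call was lost with TMM factors (adjusted p = 0.0545), RLE size factors (0.0524), DESeq2 (0.169), without well 2 (0.0667) and without well 3 (0.0625), and the sign stayed negative in each. COL2A1, the collagen of cartilage and vitreous, was named after its values were seen. It had 1, 7 and 5 UMIs in the HEK wells and 3, 1 and 3 in the 3T3 wells, was not tested here, and was higher in HEK cells without the filter (log2 fold change -2.13, adjusted p = 0.0131) and without well 1 (-2.73, adjusted p = 0.00281), but not with the deeper run of well 2 (-1.55, adjusted p = 0.0538).

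The 28 members present in both species that did not enter the test had at most 13 UMIs over the HEK wells and 17 over the 3T3 wells. No UMI of 28 of the 61 human members was seen in the first-run HEK wells, and 13 others had 1 to 3 UMIs in all. In 3T3 cells, 17 of 61 mouse members had none and 6 had 1 to 3. A count of 0 over the 3 wells allows up to 15.1 CPM in HEK cells and 5.95 CPM in 3T3 cells, so weak expression was less detectable in HEK cells. All 17 of the matrix genes that are not collagens had UMIs in every 3T3 well. Well 2 was also sequenced more deeply, to 138882 HEK and 296198 3T3 UMIs. There, TNC, COL5A2, COL3A1 and COL7A1 appeared in HEK cells, with 1, 1, 2 and 1 UMIs, and Col4a4, Col23a1 and Col9a3 in 3T3 cells, with 2, 1 and 1. Member UMIs took 0.149% of the deeper HEK library and 5.08% of the deeper 3T3 library.

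Other genes of the same pathway were read from further lists, whose counts stand beside 21.1% higher in 3T3 cells and 29.8% higher in HEK cells among all genes tested (27.4% and 22.9% with TMM factors). Of the genes for collagen synthesis and folding, 14 were tested, with 5 higher in 3T3 cells, 3 higher in HEK cells and 6 not called (35.7% and 21.4%; median log2 fold change 0.74). With TMM factors 7 and 1 were called, with an offset for gene length 8 and 2, and without the filter 5 and 4 of 17 (29.4% and 23.5%, against 12.3% and 21.3% of all genes). P4hb, the other subunit of prolyl hydroxylase and a disulfide isomerase, had 108, 187 and 162 UMIs in the 3T3 wells and 17, 31 and 45 in the HEK wells, a ratio of 1.93-fold (95% interval 1.54 to 2.44; 6.63-fold per length). The ratios were 3.44-fold (95% interval 2.16 to 5.77) for Plod3, a lysyl hydroxylase, and 2.92-fold (95% interval 1.9 to 4.67) for Fkbp10, a collagen-folding isomerase. The 3 higher in HEK cells, named after their values were seen as are those of the next lists, were the lysyl hydroxylase PLOD1, the prolyl hydroxylase P3H1 and the collagen galactosyltransferase COLGALT1, with 3T3 over HEK ratios of 0.302-fold (95% interval 0.186 to 0.486), 0.469-fold (95% interval 0.269 to 0.822; 0.727-fold per length) and 0.541-fold (95% interval 0.395 to 0.743). PLOD1 passed in every alternative. P3H1 lost its call with TMM factors, RLE size factors, an offset for gene length, mitochondrial genes in the total, DESeq2 and without well 3 (adjusted p 0.0727 to 0.682), and COLGALT1 with TMM factors, RLE size factors, DESeq2 and without well 2 (0.0671 to 0.225). Of the genes for procollagen processing and crosslinking, all 6 tested were higher in 3T3 cells (median 5.27, or 4.55 with genes at 0 at their bound). BMP1, a protease that cuts procollagen ends and is named after its values were seen, lost its call with an offset for gene length, with DESeq2 and without well 3 (adjusted p 0.0608 to 0.44), and without the filter 8 of 11 were higher in 3T3 cells and 1 in HEK cells (PCOLCE2). Pcolce, which speeds removal of the procollagen end, was 73.9-fold (95% interval 13.1 to 2935) higher, and the lysyl oxidase relatives Loxl1 and Loxl3 were 42.3-fold (95% interval 11.6 to 351) and 46-fold (95% interval 8.1 to 1833) higher.

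Matrix receptors were all higher in 3T3 cells among the 9 tested (median 3.57), and without the filter 9 of 13 were, with 1 higher in HEK cells. Of these, DDR1 lost its call without well 1 (adjusted p = 0.0956), MRC2 without well 2 (0.0505) and ITGB5 without well 3 (0.118), and without the filter ITGA1 was higher in HEK cells (0.0176), all 4 named after their values were seen. Cd44, the hyaluronan receptor, had 163, 277 and 219 UMIs in the 3T3 wells and none in HEK cells, at least 86.4-fold higher. The fibronectin receptor subunits Itga5 and Itgb1 were 15-fold (95% interval 8.29 to 30.2) and 12.1-fold (95% interval 7.4 to 21.4; 38.2-fold per length) higher. Of 9 basement membrane genes tested, 4 were higher in 3T3 cells, 1 in HEK cells and 4 were not called (44.4% and 11.1%; median 0.97). With TMM factors 6 and 1 were called, and without the filter 5 and 3 of 13. Hspg2, perlecan, was 53.1-fold (95% interval 30.9 to 99.8) higher in 3T3 cells, Lamb1, a laminin chain, 20.8-fold (95% interval 8.79 to 64.5; 34.3-fold per length), and Nid1, which links laminin to collagen IV, 5.08-fold (95% interval 4.16 to 6.27). The gene higher in HEK cells was LAMA5, a laminin chain, with 5, 18 and 17 UMIs in the HEK wells and none in 3T3 cells, at least 33.9-fold higher in HEK cells. NID1 was also well detected in HEK cells, with 26, 37 and 40 UMIs.

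Of 11 elastic fibre and proteoglycan genes tested, 9 were higher in 3T3 cells, 1 in HEK cells and 1 was not called (median 5.25, or 2.99 with genes at 0 at their bound). Without the filter 10 of 15 were higher in 3T3 cells and 2 in HEK cells. Fbln2, a fibulin that bridges matrix networks, had 443, 562 and 648 UMIs in the 3T3 wells and none in HEK cells, at least 217-fold (at least 144-fold per length) higher. Ltbp2, a microfibril protein, was also at 0 in HEK cells, at least 93.7-fold higher in 3T3 cells, and the large proteoglycan Vcan was 7.85-fold (95% interval 5.33 to 12) higher. FBN2, a fibrillin, had 10, 10 and 19 UMIs in the HEK wells and none in 3T3 cells, at least 33.1-fold higher in HEK cells. Of 7 turnover genes tested, 6 were higher in 3T3 cells and 1 in HEK cells (median 5.36, or 4.31 at the bound). Without the filter 7 of 10 were higher in 3T3 cells and none in HEK cells. Mmp14, a membrane-bound collagenase, was at least 19.8-fold higher, and Timp2, a metalloproteinase inhibitor, was 35-fold (95% interval 17.7 to 81.4) higher. ADAMTS1, a secreted protease that cuts proteoglycans, was the gene higher in HEK cells, with 4, 7 and 6 UMIs in the HEK wells and 5, 7 and 5 in the 3T3 wells, a 3T3 over HEK ratio of 0.393-fold (95% interval 0.189 to 0.819). Its call (adjusted p = 0.037) held only with the replicate block among the 11 alternatives that tested it (0.0548 to 0.254 in the other 10), so it depends on the processing. TGF-beta and YAP signalling genes, which act upstream of many matrix genes, were called for 8 of 19, all 8 higher in 3T3 cells (42.1%, against 21.1% of all genes), and 11 were not called (median 0.59). With TMM factors 10 were higher (52.6%, against 27.4%), and without well 3 there were 5 (26.3%, against 17.6%). SMAD7 lost its call in 4 alternatives and SMAD4 in 2, and without well 2 SMAD2 was higher in HEK cells (adjusted p = 0.0435), all 3 named after their values were seen. The 3T3 over HEK ratio of SMAD2 was 0.524-fold by UMIs and 1.92-fold per length, so its direction depended on that scale. Tead1, a DNA-binding partner of YAP, was 3.15-fold (95% interval 2.31 to 4.37) higher, Amotl2, a YAP-binding protein, 2.13-fold (95% interval 1.45 to 3.2) (not called without well 3, adjusted p = 0.0953), and Mrtfa, a coactivator of serum response factor, 2-fold (95% interval 1.36 to 3.03).

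In the retina, mouse members were read against layers of neural tissue. The layer table listed 59 members, and 11324 genes including 30 members passed the low-count filter. The GCL holds ganglion cells and displaced amacrine cells next to the inner limiting membrane. The BCL holds bipolar and horizontal cells together with Müller glia, and the ONL holds photoreceptors. Members took 0.0582% ± 0.014 of non-mitochondrial UMIs in the ONL, 0.179% ± 0.0178 in BCL and 0.236% ± 0.0162 in GCL sections (n = 4 sections each). The ONL sections were lower than all BCL and GCL sections. Collagen chains alone ran in another order, at 0.0244% ± 0.00499, 0.0764% ± 0.00166 and 0.0585% ± 0.0133, with every BCL section above every GCL section. Members without Sparc, left out after seeing the data, stood at 0.0413% ± 0.0065, 0.121% ± 0.0094 and 0.0993% ± 0.0144, so the place of the GCL above the BCL depended on Sparc. ONL libraries held 310228 to 801105 UMIs, BCL libraries 193869 to 208437 and GCL libraries 585655 to 785013. The sections came from the same animal, so p-values here cover the spread between sections only. As these are bulk regions, fewer cells of a type and less RNA per cell cannot be told apart.

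Sparc had more UMIs than any other member in every layer. It stood at 280.0, 155, 79 and 162 CPM in ONL sections 1 to 4, 470.5, 574, 562 and 686 in the BCL and 1334, 1383, 1355 and 1403 in the GCL. The 3 layers did not overlap, with the GCL highest at 1369 ± 30.8 CPM. Log2 fold changes were 1.33 ± 0.18 for BCL minus ONL, 2.71 ± 0.16 for GCL minus ONL and 1.38 ± 0.15 for GCL minus BCL, and all passed edgeR's quasi-likelihood test (largest Benjamini-Hochberg adjusted p = 1.22e-08). Fn1 stood at 42.3, 24.6, 23.9 and 33.8 CPM in the ONL, 175, 195, 164 and 290.3 in BCL and 121, 157, 207 and 126 in GCL sections. It was lower in every ONL section than in any other and overlapped between the BCL and the GCL, where its adjusted p was 0.169, and 0.0163 without section 3.

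The collagen IV pair was lowest in the ONL and highest in the GCL. Col4a1 stood at 34.3, 23.1, 14.4 and 3.38 CPM in the ONL, 82.1, 46.1, 54.5 and 79.2 in BCL and 179.8, 186, 67.8 and 184 in GCL sections. Col4a2 stood at 21.1, 8.67, 4.79 and 30.4 in the ONL, 65.6, 71.7, 131 and 73.9 in BCL and 157, 208, 79.7 and 165 in GCL sections. Section 3 of the GCL was the lowest of its layer for both chains, within the range of the BCL, and ONL values stayed below all others. The GCL exceeded the BCL by 1.37 ± 0.28 for Col4a1 and 0.96 ± 0.25 for Col4a2 on the log2 scale (edgeR's quasi-likelihood test, Benjamini-Hochberg adjusted p = 6.84e-05 and 0.00157). Col4a3 and Col4a4, near 0 in the mixed culture, were highest in the ONL, at 24.2 ± 4.77 and 15 ± 6.12 CPM, and both were called above the BCL and above the GCL. Timp3 stood at 21.5 ± 4.42 CPM in the ONL, 71.8 ± 23.9 in BCL and 67.4 ± 19 in GCL sections, with both inner layers called above the ONL.

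A set of collagens peaked in the BCL. Col23a1, a transmembrane collagen with no UMI in the first-run 3T3 wells, stood at 34.3, 15.9, 9.57 and 37.2 CPM in the ONL, 213, 174, 158 and 195 in BCL and 32.1, 29.7, 44.1 and 35.7 in GCL sections. All BCL sections lay above all others, by 2.57 ± 0.24 over the ONL and, for GCL minus BCL, -2.26 ± 0.22 on the log2 scale (adjusted p = 4.93e-13 and 1.83e-12 from edgeR with Benjamini-Hochberg adjustment). Col2a1 averaged 117 ± 38.9 CPM in the BCL, 17.3 ± 9.91 in the ONL and 10.5 ± 4 in the GCL, and Col27a1, another fibrillar chain, 50.5 ± 13, 1.62 ± 1.2 and 3.27 ± 2.39. Col1a2 averaged 58.6 ± 27.7 CPM in the BCL, 22.9 ± 12.4 in the GCL and 4.51 ± 2.02 in the ONL, far below its 7935 ± 1432 CPM in 3T3 cells. The mixed culture and the retina were separate experiments, and differences between 3T3 cells and retinal layers were not tested for any member. The Col1a2 values of the layers also differed among sections. Its BCL and GCL sections overlapped, as BCL section 4, at 21.1 CPM, lay below GCL sections 2 and 4, at 31.3 and 35.7 CPM.

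**Figure D5:**
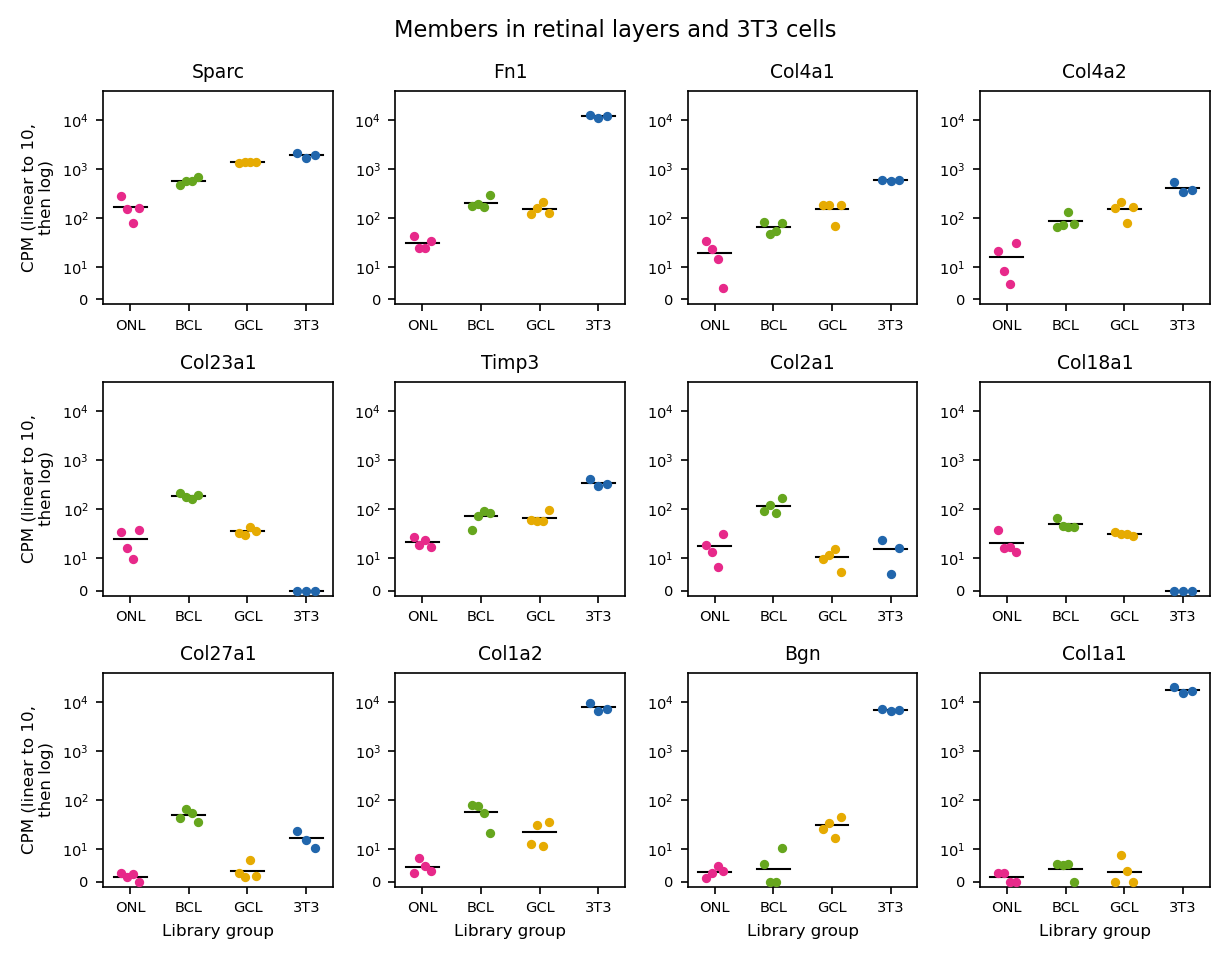
CPM of 12 members in the sections of the 3 retinal layers and the wells of 3T3 cells, on an axis that is linear to 10 and logarithmic above; points are libraries and horizontal bars are means. Col1a1, Col1a2, Bgn and Fn1 are far higher in 3T3 cells, Sparc is at 1369 CPM in the GCL against 1891 CPM in 3T3 cells, and Col23a1 and Col18a1 are at 0 in the 3T3 wells. The 3T3 and retinal libraries were separate experiments, and differences between them were not tested.

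Between the ONL and the BCL, 10 of the 30 tested members were higher in the BCL (18.2% of all genes tested were) and 3 in the ONL (18.5%), with a median log2 fold change of 0.71 against -0.09 over all genes. Those higher in the BCL were COL1A2, COL2A1, COL4A1, COL4A2, COL23A1, COL27A1, FN1, PLOD2, SPARC and TIMP3, and those higher in the ONL were COL4A3, COL4A4 and COL19A1. Between the ONL and the GCL, 16 were higher in the GCL (32.2%) and 7 in the ONL (29.3%), with a median of 1.21 against 0.00. The GCL set was BGN, CCN2, COL1A2, COL4A1, COL4A2, COL5A1, COL6A1, COL6A2, COL8A1, COL25A1, FN1, POSTN, SERPINH1, SPARC, TIMP3 and TNC, and the ONL set COL4A3, COL4A4, COL9A1, COL19A1, MMP2, P4HA1 and THBS1. Between the BCL and the GCL, 8 were higher in the GCL (20.4%) and 8 in the BCL (16.1%), with a median of 0.02 for members and for all genes. The GCL set was BGN, CCN2, COL4A1, COL4A2, COL6A2, COL25A1, SPARC and TNC, and the BCL set COL1A2, COL2A1, COL9A1, COL23A1, COL27A1, MMP2, P4HA1 and PLOD2. Differences between the shares of members called and those of all genes were not tested. Comparisons that share a layer share its libraries.

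Several of these calls rested on particular sections. Without section 4 the COL4A1 difference between the ONL and the BCL had an adjusted p of 0.135. COL4A4 lost its call between these layers without section 1, 2 or 4, with RLE size factors and with DESeq2 (adjusted p 0.0507 to 0.176). Between the ONL and the GCL, COL6A1 lost its call without section 1 or 2 and with DESeq2 (0.0768 to 0.25), COL8A1 without section 2 (0.151), COL9A1 without section 1 (0.0928) and THBS1 without section 2 (0.0617). MMP2 lost it without section 1, 3 or 4, with DESeq2 and without the filter (0.0595 to 0.122). Between the BCL and the GCL, COL1A2 (0.112) and MMP2 (0.113) lost their calls without section 1, COL25A1 without section 2 (0.0928), TNC without section 1 or 2 (0.0558 to 0.108) and P4HA1 without section 1, 2 or 3 and without the filter (0.0591 to 0.0889). Members not called in all sections passed in some settings, among them COL18A1 and P4HA1 between the ONL and the BCL and COL20A1 between the ONL and the GCL with the section as a block (adjusted p = 0.0467, 0.0376 and 0.0483). Others passed without 1 section, between the ONL and the BCL COL5A1 without section 4 (0.0431), between the ONL and the GCL COL2A1 without section 3 (0.0128) and PLOD2 without section 1 (0.0363), and between the BCL and the GCL COL4A3 and POSTN without section 4 (0.0457 and 0.0155) and THBS1 without section 2 (0.0286). CCN1, too low to be tested with all sections, passed without section 3 in both comparisons with the ONL (0.0217 and 0.0173). No call turned over in direction.

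Markers of other cell types differed between the layers alongside these genes, from lists chosen after the values were seen. The 9 genes of vessel cells summed to 169 ± 61.1 CPM in the ONL, 1242 ± 36.8 in BCL and 812 ± 166 in GCL sections, all 9 were detected in each layer, and Kdr, a receptor of endothelial cells, was highest in the ONL and BCL (889 CPM in the BCL) and Rgs5, a pericyte gene, in the GCL (401 CPM). Without Kdr, left out after seeing the data, the vessel sum was 91.6 ± 24.5 CPM, 353 ± 49.8 and 716 ± 170.3 in the same order, so the GCL then stood above the BCL. The 3 astrocyte genes summed to 22.1 ± 13.2 CPM, 18.6 ± 5.13 and 201 ± 34.7 in the same order, with Gfap highest and S100b at 0 in the BCL. The 4 Müller glia genes summed to 814 ± 253 CPM, 6855 ± 327 and 1354 ± 77.9, with Glul highest. The Müller glia sum was highest in the BCL and the astrocyte sum in the GCL. Their part in the layer differences of the collagen and matrix genes was not tested.

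In the amacrine cell libraries 55 members were listed. Member UMIs took 0.141% ± 0.012 in TH+ cells and 0.176% ± 0.0246 in TH- cells (n = 5 sections each), at depths of 30317 to 87449 and 134394 to 200344 UMIs. Sparc again had the most UMIs of the members, at 517 ± 129 CPM in TH+ and 575 ± 153 CPM in TH- cells. Tnc stood at 135, 99.1, 76.1, 47.4 and 212 CPM in TH+ sections 1 to 5 and 93, 131, 111, 102 and 105 in TH- sections, which overlapped. The TH+ values rest on 2 to 8 UMIs in each library. Both groups lay above the 3 layers, but the amacrine and layer libraries were separate experiments, and this difference was not tested. Col18a1 stood at 67.5, 24.8, 50.8, 94.9 and 70.7 CPM in TH+ sections and 0, 24.9, 23.8, 26.8 and 15 in TH- sections, from 2 to 4 UMIs in each TH+ library and 0 to 5 in each TH- library. Col1a2 had no UMI in any TH+ library and averaged 11.4 ± 7.51 CPM in TH- cells. Differences between TH+ and TH- cells were not tested for these genes.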

How the data were processed

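The study made Light-Seq libraries of a mixed HEK and 3T3 culture (3 wells, 6 libraries) and of mouse retina (12 layer and 10 amacrine libraries). The authors deposited UMI counts per gene, made with UMI-tools 1.1.1, STAR 2.7.9a, SAMtools 1.9 and featureCounts over exons with default settings. The deposited TPM divide each count by gene length before scaling to a fixed total. Gene positions came from a later GENCODE release on GRCm39, the assembly the authors used, matched by Ensembl gene ID for 61 of 61 mouse members. Promoter windows came from RefSeq on GRCm38.p6.

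Human and mouse genes were joined where the upper-cased name was unique in both. Counts were tested with edgeR 4.0.16 in R 4.3.3 (quasi-likelihood, Benjamini-Hochberg adjustment over all genes tested, threshold 0.05), after filterByExpr with min.count 3 and min.total.count 10. Library size was the non-mitochondrial total in the mixed culture and TMM-scaled in the layers. Errors of log2 fold changes are the absolute value divided by the square root of F. The tests were tried on simulated counts first. Values were summarised with Python 3.11.15, pandas 2.3.3, numpy 2.4.6 and scipy 1.17.1, and drawn with matplotlib 3.10.9.

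Named with values were members with a mean of at least 10 UMIs in a line, the chains of collagens I, IV, V and VI, the 3 highest genes of each other list, the retinal members called (values for the 6 highest), and members seen only in the deeper run. 1 gene of the matrix turnover list is not reported here. Others were named after their values were seen. The other lists were collagen synthesis and folding, procollagen processing and crosslinking, matrix receptors, basement membrane, elastic fibre and proteoglycans, matrix turnover, TGF-beta and YAP signalling, fibroblast markers and HEK markers. Members and lists were chosen with earlier results of these data known. Alternatives were TMM, RLE size factors, a gene length offset, mitochondrial genes in the total, no filter, edgeR's default filter, the replicate block, DESeq2 1.42.0, the deeper run of well 2, and leaving out each replicate.

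Libraries of the same number came from the same well or retinal section according to the labels. Deviations from group means correlated at 0.0138, 0.0172 and -0.0102 for the 3 pairs of the mixed culture, and at 0.0107 to 0.0495 for layers of the same section. The pooled retina library was not used here.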

Additional observations from a re-analysis of the deposited data

Results flagged for a closer look

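In the retina, 1 library stood far from the others of its group in 5 of 35 groups examined (6 members and their summed level in the layers and amacrine groups), and chance gives about 1 in 20. Col4a2 was 131 CPM in BCL section 3, against 65.6 to 73.9 CPM in the other BCL sections. Col4a1 was 67.8 CPM in GCL section 3, the lowest of its layer, against 179.8 to 186 CPM. Timp3 was 95.8 CPM in GCL section 4, against 56.0 to 59.9 CPM. Fn1 was 278 CPM in TH- section 3, against 102 to 120.3 CPM, and Col4a1 was 75.2 CPM in TH- section 5, against 31.1 to 37.5 CPM. The cause was not tested.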

How the results depend on the processing

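Fits under the alternatives were compared with the calls for tested members in the mixed culture and for called members in the retina. Of these, 786 kept their direction and side of the threshold, 31 no longer passed, 3 passed only in the alternative (COL4A5 and COL4A6) and none turned over. The retinal members that passed only in an alternative are given above and are not among these numbers. For the tested genes of other lists that the naming rule took, 321 stayed and 2 no longer passed (Amotl2 and CDH2). For the 6 list genes higher in HEK cells that were named after their values were seen, 50 stayed and 20 no longer passed, all of P3H1 (6), COLGALT1 (4) and ADAMTS1 (10); these fits were added after seeing the data. The 27 members higher in 3T3 cells passed in every alternative that tested them, and 24 were tested in all 12. Members higher in HEK cells numbered 1 with TMM factors, 1 with RLE size factors, 1 with edgeR's default filter and 1 with DESeq2, and 0 to 2 when a well was left out. With the default filter, which tested 16 members in the retina, 0 were higher in the ONL than the BCL and 10 in the BCL (23.5% and 22.2% of all genes then tested), 11 were called between the ONL and the GCL (8 higher in the GCL and 3 in the ONL, against 36.0% and 35.4%), and 4 were higher in the GCL than the BCL and 7 in the BCL (24.0% and 22.5%). Members higher in the BCL than the GCL numbered 5 to 8 when a section was left out. The summed 3T3 level was 4.07% in deposited TPM, a scale that differs by the division by gene length, against 6.30% by UMIs. The cause of the other changes was not tested, apart from the smaller number of genes that the default filter tests. Over all genes, 3121 were called between the lines, against 2283 with DESeq2 and 1871 with the default filter.

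With the replicate block, 27 and 2 members were called between the lines, 11 and 4 between the BCL and the ONL, 16 and 8 between the GCL and the ONL, and 8 and 8 between the GCL and the BCL, and the block changed no call other than the 3 given above. The deeper run of well 2 was an alternative chosen after seeing the data. There, Col4a1 over Col4a2 was 1.3 by UMIs against 1.71 in the first run (SD between wells 0.326). Col1a1 over Col1a2 was 2.24 against 2.31 (SD 0.0731). Both ratios moved by more than the SD between wells, but each deeper value stayed between the lowest and the highest first-run well. Depth limits the members at few UMIs, more so in HEK cells.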
